A study of Mus musculus with 4 samples.

Results

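Wfdc12 and 7 related genes encode secreted proteins with a whey acidic protein (WAP) domain. They were chosen by their gene names with earlier values of these arrays in view, Wfdc12 because its log2 ratio was strongly negative, so that its difference between the genotypes is given as a description with no test. The 8 genes, Wfdc1, Wfdc2, Wfdc3, Wfdc5, Wfdc12, Wfdc15b, Wfdc18 and Slpi, are 8 of 29924 gene names on the array and are covered by 10 of its 39429 probes. RNA came from the basal part of organs of Corti, the sensory epithelium of the cochlea, of NMRI mouse embryos at E18.5 (E, embryonic day). Sox2-Tbx2LOF embryos had the genotype Sox2(creERT2);Tbx2(fl/fl), in which a tamoxifen-inducible Cre is expressed from the Sox2 gene. Recombination is therefore limited to cells that express Sox2 around the time of tamoxifen and to their descendants. Controls were Tbx2(fl/n.d.) without Cre, and the labels leave their second Tbx2 allele undetermined. The Cre in the Sox2 gene thus differed between the genotypes together with the loss of Tbx2, and the 2 cannot be told apart. For embryos of both genotypes the dams had received 4 mg tamoxifen by mouth at E16.5, and the study's methods add progesterone. Each of 4 dual-colour arrays compared a pool of several Sox2-Tbx2LOF organs of Corti with a control pool of the same sex, female on arrays 1 and 2 and male on arrays 3 and 4. The Sox2-Tbx2LOF RNA was labelled with Cy3 on arrays 1 and 3 and with Cy5 on arrays 2 and 4.

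The WAP domain is a short fold held together by disulfide bonds between conserved cysteines and is also called the four-disulfide core. Proteins with this domain are secreted from epithelia and glands, and several of them block serine proteases or kill bacteria. Slpi, the secretory leukocyte protease inhibitor, blocks elastase and cathepsin G released by neutrophils. Wfdc2 is a secreted product of airway and reproductive epithelia and is used as a tumour marker under the name HE4. Wfdc12 and Wfdc15b each carry a single WAP domain and are also listed as SWAM2 and SWAM1. Most members lie together on mouse chromosome 2, while Wfdc1 lies on chromosome 8 and Wfdc18 on chromosome 11.

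Probe sequences are shown first, because related genes of a family can hybridise to each other's probes. Wfdc12 was measured by 1 probe (A_51_P487073) that starts at base 189 of its transcript and lies on mm9 chr2:164015895-164015954 on the minus strand. Its sequence is set beside that of Wfdc15a, the WAP gene of the array with the longest shared run, and the capitals mark the 11 bases that both have in common.
Wfdc12: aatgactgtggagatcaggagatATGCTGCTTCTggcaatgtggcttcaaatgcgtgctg
Wfdc15a: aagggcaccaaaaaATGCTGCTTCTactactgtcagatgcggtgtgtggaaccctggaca
Against all 39428 other probes of the array the longest identical run was 14 bases, in a probe of Lrp8os1. The WAP genes Wfdc6a and Wfdc6b, which are described below, are a closer pair. Their probes share a run of 18 bases, in capitals, and match at 43 of 57 bases in the best ungapped alignment. Whether either probe reads RNA of the other gene was not tested.
Wfdc6a: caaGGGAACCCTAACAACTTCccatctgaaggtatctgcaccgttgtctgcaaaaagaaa
Wfdc6b: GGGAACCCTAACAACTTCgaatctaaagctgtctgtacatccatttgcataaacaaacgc

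Wfdc12 RNA was lower in Sox2-Tbx2LOF than in control pools on every array. The mean signal of its spots was 231.9, 303.2, 323.4 and 257.8 in the Sox2-Tbx2LOF channel of arrays 1 to 4. In the control channel of the same arrays it was 833.4, 695.9, 1019.6 and 699.1. All control pools lay above all Sox2-Tbx2LOF pools, whichever dye they carried. After normalization the log2 channel level was 8.07, 8.12, 8.34 and 8.12 in the Sox2-Tbx2LOF pools and 9.65, 9.63, 9.88 and 9.65 in the control pools. Array 3 had the highest level in either genotype.

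The log2 ratio of Sox2-Tbx2LOF over control was −1.57, −1.51, −1.54 and −1.54 for Wfdc12 on arrays 1 to 4, with a mean of −1.54 ± 0.03 (SD, n = 4). This corresponds to a level 2.91-fold higher in controls. The values of the 4 arrays were close together, since only 1.1% of the 28104 tested probes had a smaller SD and the median SD was 0.13. This SD takes in differences between the dyes, so a probe that reads the dyes differently has a larger one. Over the 16 single spots the log2 ratio lay between −1.63 and −1.42. It was −1.52 with Sox2-Tbx2LOF in Cy5 and −1.56 with Sox2-Tbx2LOF in Cy3. Among all tested probes Wfdc12 had rank 5 from the lowest log2 ratio. In such bulk samples, fewer cells that contain a transcript cannot be told apart from less transcript per cell.

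**Figure D1:**
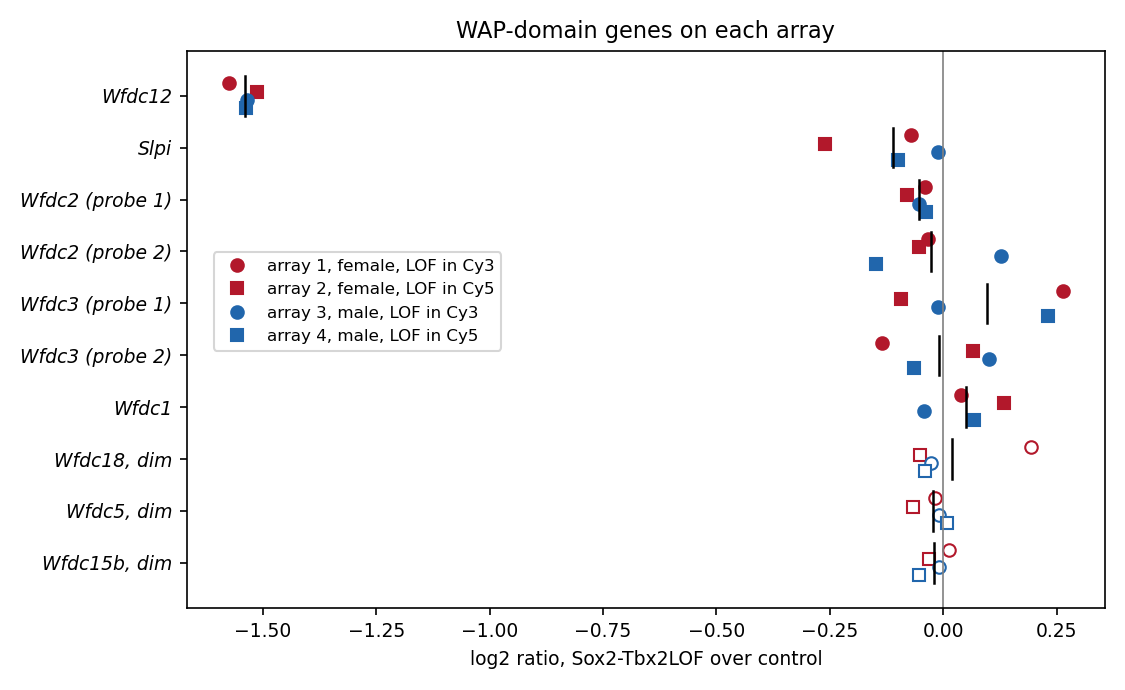
Log2 ratio of Sox2-Tbx2LOF over control for the 10 probes of the 8 WAP-domain genes. Each point is 1 array, colours give the sex of the pools, symbols the dye of the Sox2-Tbx2LOF RNA, open symbols probes that were too dim to be tested and vertical lines the mean of 4 arrays; Wfdc12 lies near −1.54 on all arrays while the other genes scatter around 0.

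Of the 10 member probes, 7 from 5 genes were bright enough to be tested. Calls required an adjusted p under 0.05 in limma together with a difference of 1.5-fold or more. In the comparison of genotypes 70 of the 28104 tested probes were called, or 0.249%, of which 36 were lower in Sox2-Tbx2LOF, or 0.128%. At any fold change 277 probes passed the adjusted p, or 0.986%. Of the members only the Wfdc12 probe was called, and since it was picked for this difference nothing is read from that count. The levels of the genotypes did not overlap for 2 of the 7 tested member probes, Wfdc12 and 1 probe of Wfdc2, against 2.53% of all tested probes.

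Slpi, 164 kb from Wfdc12 on the same chromosome, was measured well above background on all arrays. Its log2 level was 9.17, 9.09, 9.10 and 9.16 in the Sox2-Tbx2LOF pools and 9.25, 9.35, 9.11 and 9.26 in the control pools. The groups overlapped, because the control pool of array 3 was below 2 of the 4 Sox2-Tbx2LOF pools. The log2 ratio was below 0 on 4 of 4 arrays, from −0.26 to −0.01, and averaged −0.11 ± 0.11 (SD, n = 4).

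Wfdc2 was represented by 2 probes. The probe near base 648 of the transcript had log2 levels from 14.97 to 15.04 in the Sox2-Tbx2LOF pools and from 15.04 to 15.07 in the control pools. All control pools were above all Sox2-Tbx2LOF pools, but the nearest pools differed by less than 0.01, and the mean log2 ratio was only −0.05 ± 0.02 (SD, n = 4). The probe near base 292 had log2 levels from 13.12 to 13.44 in Sox2-Tbx2LOF and from 13.15 to 13.42 in control pools. These groups overlapped, and the log2 ratios averaged −0.03 ± 0.11 (SD, n = 4).

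Wfdc1 was first known for effects on prostate cell growth and lies on chromosome 8. Its log2 level was 7.82, 8.01, 7.92 and 8.004 in Sox2-Tbx2LOF pools and 7.79, 7.88, 7.96 and 7.94 in control pools. The groups overlapped and the mean log2 ratio was 0.05 ± 0.07 (SD, n = 4).

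Wfdc3 carries several WAP domains, and its 2 probes differed in sign. The probe near base 178 of the RefSeq transcript had log2 ratios that averaged −0.01 ± 0.11 (SD, n = 4). The other probe lies near base 1020 of a different transcript, from Ensembl, and had no RefSeq match. Its log2 ratios averaged 0.10 ± 0.18 (SD, n = 4). The 2 base numbers thus do not give the order of the probes on 1 transcript. For both probes 2 arrays were above and 2 below 0, and the groups overlapped.

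**Figure D2:**
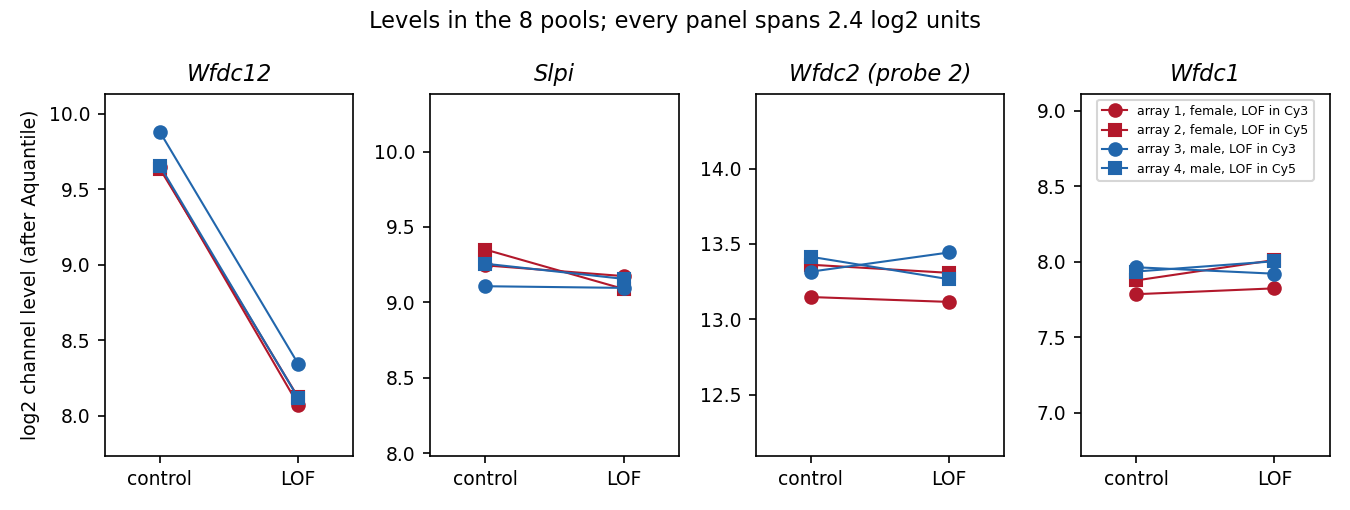
Log2 channel levels of Wfdc12, Slpi, Wfdc2 (the probe near base 292) and Wfdc1 in the control and Sox2-Tbx2LOF pools; lines join the 2 pools of an array, colours give the sex and symbols the dye. The panels have different levels but the same height in log2 units; the lines of Wfdc12 fall in parallel, and the groups of the other 3 genes overlap.

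The remaining 3 members were dim. Wfdc5 and Wfdc15b were not well above background on any array in either genotype. Wfdc18, known as an extracellular proteinase inhibitor of the mammary gland, was well above background in the green channel of 4 of 4 arrays and in the red channel of 0 of 4, so that each genotype had it on 2 arrays. With the dyes swapped its detection followed the dye and not the genotype. Its log2 ratio was 0.19 on array 1 and between −0.05 and −0.03 on the others. For these 3 genes the array gives no usable ratio.

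The comparisons between the sexes are other contrasts than the one that picked Wfdc12. That of the log2 ratios uses the same 4 ratios, but their difference between the sexes and not their mean. The log2 ratio of Wfdc12 was −1.54 in female pools and −1.54 in male pools. The difference, male minus female, was 0.01 (SE 0.11, 95% interval −0.24 to 0.26, limma adjusted p = 1.00). For the other tested member probes the difference of the log2 ratios lay between −0.07 and 0.11, and 0 of 7 member probes had an unadjusted p under 0.05. No probe of the array passed the adjusted threshold in this comparison, or 0%, while 566 had an unadjusted p under 0.05 (limma). With 2 pools per sex and genotype only large differences could have passed, as the width of the interval for Wfdc12 shows.

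The log2 level over both genotypes was 8.87 in female and 8.998 in male pools for Wfdc12, a difference of 0.13 (SE 0.07, 95% interval −0.04 to 0.29, limma adjusted p = 0.66). In the other member probes the male minus female difference lay between −0.06 and 0.13. Of all tested probes 19 differed in level between the sexes, or 0.0676%, and 0 of 7 member probes were among them (limma). None of the member probes had an unadjusted p under 0.05 in this comparison. Both pools of an array were of the same sex, so differences in level between the sexes cannot be told apart from differences between arrays.

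The surroundings of Wfdc12 hold WAP genes, seminal vesicle secretory protein genes and unrelated genes. Besides Wfdc12, 56 genes within 1 Mb were tested with 77 probes, and 0 were called in the comparison of genotypes, while 9 probes had an unadjusted p under 0.05 (limma) and 0 were called by unpaired limma. Of all genes tested, 8.52% had a probe with such a p. The 9 probes include pairs from 1 gene (Matn4, Rbpjl) and the related probes of Wfdc6a and Wfdc6b, so nothing particular to the region is read from them. The mean log2 ratios of the 77 probes had a median of −0.01 and ran from −0.42 to 0.30, against a median of 0.00 over all tested probes. Without array 1, whose Wfdc6b ratio stood apart from those of the other arrays, the probe of Wfdc6b was called in this region. This call is a description and not a test, since that ratio singled out array 1.

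The nearest tested probe was that of A730032A03Rik, 2.77 kb from Wfdc12, on mm9 chr2:164018666-164018725 and in the opposite orientation. RefSeq (GRCm38.p6) lists A730032A03Rik as a long non-coding RNA whose span takes in the whole Wfdc12 gene and overlaps Wfdc5. Its log2 ratio was −0.06, −0.41, −0.52 and −0.62 on arrays 1 to 4, with a mean of −0.40 (SE 0.08, limma adjusted p = 0.057). It was below 0 on 4 of 4 arrays but did not pass the threshold. Without array 1, where it was nearest to 0, the log2 ratio was −0.52 with an adjusted p of 0.0079 (limma). Array 1 was singled out by these same ratios, so this p is a description and not a test. Without array 2, 3 or 4 the adjusted p was 0.0057, 0.15 and 0.044 (limma). Under 15 other settings it was below 0 in 15, and its adjusted p lay between 0.0057 and 1.00, under 0.05 in 5.

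Within 200 kb the other tested genes were Ywhab, Pabpc1l, Tomm34, Stk4, 6330575P09Rik, Kcns1, Slpi and Matn4. Kcns1, a potassium channel subunit gene 25.8 kb away, had a log2 ratio of −0.08, and Stk4, a kinase gene whose nearer tested probe was 35.0 kb away, one of 0.04. Matn4, which encodes an extracellular matrix protein, had −0.22 with an adjusted p of 0.59 (limma). Ywhab, Pabpc1l, Tomm34 and 6330575P09Rik lay between −0.08 and 0.06. Wfdc5, Wfdc15a, Wfdc15b and the seminal vesicle genes Svs2, Svs3a, Svs3b, Svs4, Svs5 and Svs6 were not well above background on any array.

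**Figure D3:**
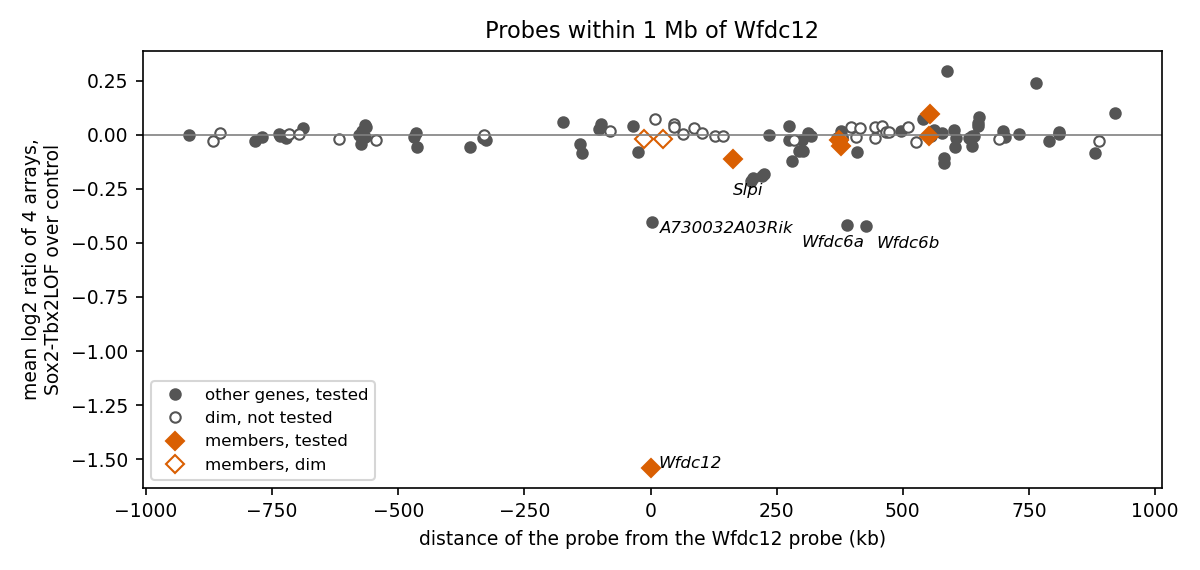
Mean log2 ratio of 4 arrays, Sox2-Tbx2LOF over control, against the distance of each probe from the Wfdc12 probe in kb on mm9. Diamonds are members, circles other genes, and open symbols were too dim to be tested; Wfdc12 stands alone at −1.54, A730032A03Rik at −0.40 is the nearest tested probe, and Wfdc6a and Wfdc6b lie at −0.42.

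Tbx2 is a T-box transcription factor, so the promoter windows of the members were searched for the T-box half-site letters TCACACC and for the shorter core TCACAC inside it, on both strands. RefSeq windows (GRCm38.p6, 250 bases before to 50 after the start site) were found for 6 of the 8 members. The window of Wfdc12 held neither. Its 250 bases before the start site (chr2:164190559-164190808, minus strand) are shown because Wfdc12 was the member with the difference, and the capitals mark an 18-base run made of the unit CAGCAC, which begins 54 bases before the start site.
Wfdc12: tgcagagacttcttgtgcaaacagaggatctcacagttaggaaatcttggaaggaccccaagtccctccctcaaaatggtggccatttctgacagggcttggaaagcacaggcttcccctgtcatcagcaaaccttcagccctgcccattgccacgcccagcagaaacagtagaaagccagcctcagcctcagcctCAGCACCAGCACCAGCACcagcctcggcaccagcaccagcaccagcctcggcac
This run was present in 4 of 32851 windows of the same length, or 0.0122%, on either strand. It was picked from the Wfdc12 window, which is itself among the 4, so nothing is read from this share.

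The longer half-site was present in 1 member, Wfdc2, next to the start site, and in 3.98% of all windows. The core was present in Wfdc2 and Slpi and in 14.5% of all windows. The stretches are given for the place of the letters, in capitals, in Wfdc2 (chr2:164562702-164562731, plus strand) and, as the complement, in Slpi (chr2:164356632-164356661, minus strand).
Wfdc2: ctggctgcaggTCACACCtgcaccatgcct
Slpi: cgagagtccacGTGTGAtgtctcagcttca
These are matches of letters and not binding sites, and the windows cover the start sites only.

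Other protease inhibitors and the proteases they act on were examined in 8 lists with 172 genes on the array, of which 91 were tested. In the comparison of genotypes 0 of these genes were called changed, while 20 had a probe with an unadjusted p under 0.05 (limma) and unpaired limma called 0. These 20 were 22% of the list genes, against 8.52% of all 21233 genes tested. At any fold change 5 genes passed the adjusted p, or 5.49% against 1.2% of all genes, 3 higher and 2 lower in Sox2-Tbx2LOF. The lists were chosen with earlier results of these data known, and some of their genes are near-identical copies. Nothing particular to the lists is therefore read from these shares. The lists also left out Corin, a transmembrane serine protease gene that was called lower and is described at the end. The count of 0 called genes holds only for the listed genes. Without array 3 only 1 list gene passed the adjusted p, Serpina1c, and without the dye term or in unpaired limma 0 passed.

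The higher genes were serpins, a family of inhibitors that trap serine proteases. Serpina1a, Serpina1c and Serpina1e, mouse copies of alpha-1-antitrypsin, had log2 ratios of 0.41 (SE 0.06, adjusted p = 0.015), 0.41 (SE 0.05, adjusted p = 0.0081) and 0.32 (SE 0.05, adjusted p = 0.030) in limma and were above 0 on 4 of 4 arrays. These copies are nearly identical in sequence, so their probes may read each other's RNA, and another tested probe of Serpina1e was at 0.05. Serpina1d and Serpina1f, which were also tested, were at 0.19 (limma adjusted p = 0.17) and 0.01. For the 3 genes that passed, the pool levels of the genotypes overlapped. Serpina1c had log2 levels of 8.02 to 8.72 in Sox2-Tbx2LOF and 7.55 to 8.25 in control pools. Serpina3m was lower at −0.36 (SE 0.06, limma adjusted p = 0.047), on 4 of 4 arrays. Over the 33 serpins tested the median log2 ratio was 0.03.

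Among the WAP genes outside the members 6 of 15 were tested and their median log2 ratio was −0.08. Wfdc6a had −0.42 (SE 0.09, limma adjusted p = 0.088) and Wfdc6b −0.42 (SE 0.09, limma adjusted p = 0.10). Wfdc6a was at 0.06 on array 1 and at −0.55, −0.55 and −0.63 on arrays 2 to 4, and Wfdc6b was at 0.13 on array 1 and at −0.66, −0.54 and −0.63. Array 1 was thus apart from the other 3. Without it Wfdc6b was at −0.59 with a limma adjusted p of 0.0021. Array 1 was singled out by these same ratios, so this p is a description and not a test. Wfikkn2, which encodes a protein with WAP, Kunitz and other domains, was at 0.10, and the other WAP genes tested lay between −0.08 and 0.02.

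Papln, which encodes an extracellular matrix protein with Kunitz domains, was the lowest of the 6 Kunitz genes tested, whose median was −0.02. Its brightest probe had a log2 ratio of 0.14 on array 1 and −0.74, −0.70 and −0.76 on arrays 2 to 4. Stfa2, a stefin that inhibits cysteine proteases, had 0.27 on array 1 and −0.81, −0.67 and −0.67 on the others, in a list of 7 cystatins and stefins with a median of −0.03. Of the other genes in these lists, Spint1 and Spint2, membrane-bound inhibitors of epithelial proteases, were at −0.06 and 0.04 at their brightest probes, with another Spint1 probe at −0.23 on 4 of 4 arrays (limma adjusted p = 0.13). The stefins Stfa3 and Stfa1 were at −0.12 and −0.07. Papln and Stfa2 did not pass with all arrays (limma adjusted p = 0.096 and 0.20). Without array 1 the log2 ratio was −0.73 for Papln and −0.71 for Stfa2, with limma adjusted p of 0.00095 and 0.0012. Here too array 1 was singled out by the ratios themselves, so these p-values are descriptions and not tests.

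The 4 genes shared more than array 1. In each of them the female control pools were above the male control pools, and the Sox2-Tbx2LOF pool of array 1 was the highest of its genotype. For Wfdc6b the log2 level was 10.78 in that pool, 10.21 in the other female Sox2-Tbx2LOF pool, and 9.77 and 9.80 in the male ones. The control pools were at 10.65, 10.86, 10.31 and 10.43. Papln ran from 11.75 in the Sox2-Tbx2LOF pool of array 1 to 10.30 in that of array 3, with control pools at 11.61, 11.86, 10.996 and 11.26. For Wfdc12 the SD between the 4 Sox2-Tbx2LOF pools was 0.12. Wfdc6a, Wfdc6b and Papln passed the adjusted p of limma also when array 2 or array 4 was left out, but not without array 3.

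**Figure D4:**
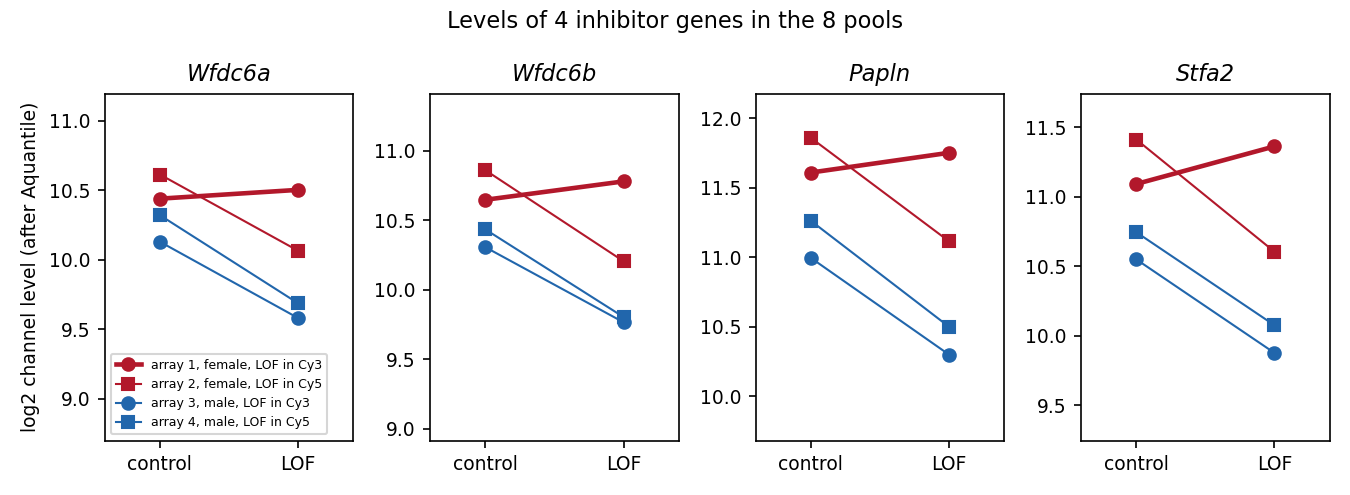
Log2 channel levels of Wfdc6a, Wfdc6b, Papln and Stfa2 in the control and Sox2-Tbx2LOF pools; lines join the 2 pools of an array, colours give the sex and symbols the dye, and each panel has its own level axis. The thick line of array 1 rises where those of arrays 2 to 4 fall.

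Of the 5 Kazal-domain genes tested none passed the adjusted p (limma), while 3 had a probe with an unadjusted p under 0.05. Spink5, an inhibitor of skin proteases, was at 0.19 on 4 of 4 arrays above 0 and had an adjusted p of 0.22 (limma). Spink2 was at −0.14, below 0 on 4 of 4 arrays (limma adjusted p = 0.48), and Spink8 at 0.07. The probes of Reck, a membrane-anchored inhibitor of matrix metalloproteases, disagreed. The brightest was at −0.00, and another was at −0.34 and below 0 on 4 of 4 arrays (limma adjusted p = 0.081). Reck passed the adjusted p without array 1 or array 2. The 4 TIMPs, inhibitors of matrix metalloproteases, lay between −0.02 and 0.11, with Timp3 highest. Of the leukocyte serine proteases, which include the targets of Slpi, 5 were tested and lay between −0.02 and 0.09, with Ctsg, the gene of cathepsin G, at 0.09, Gzma at 0.04 and Prtn3 at 0.03. Of the epithelial serine proteases 25 were tested with a median of 0.01, and Tmprss9, a transmembrane protease, was lower at −0.31 (SE 0.05, limma adjusted p = 0.024) on 4 of 4 arrays.

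**Figure D5:**
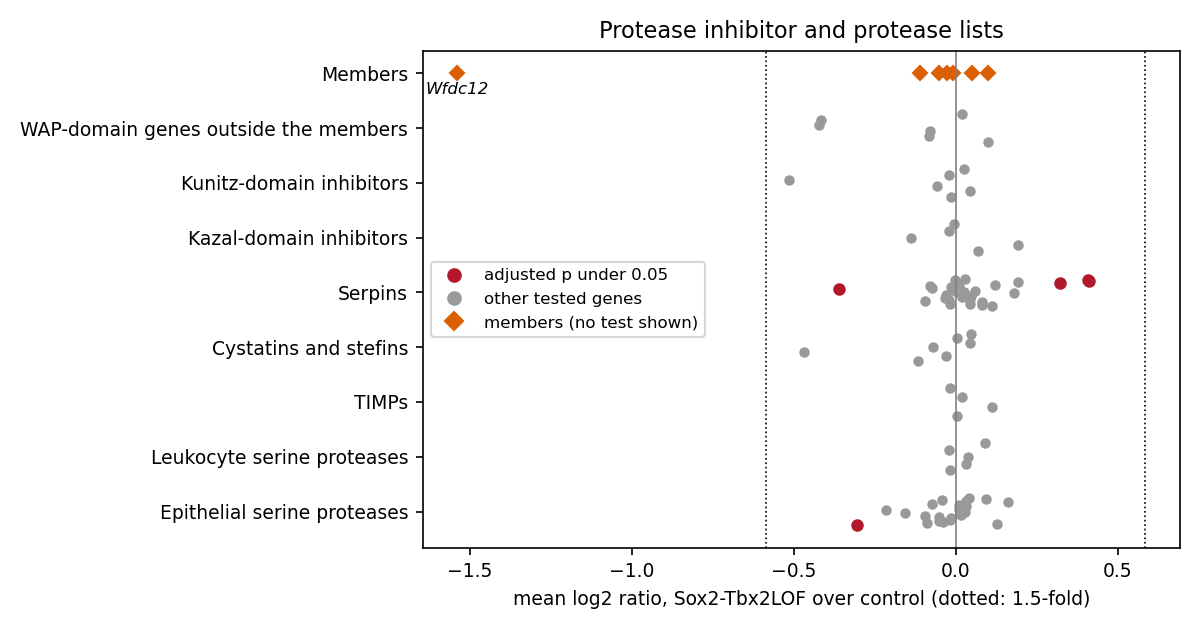
Mean log2 ratio of 4 arrays, Sox2-Tbx2LOF over control, of the tested member probes (diamonds) and of the genes of 8 lists of protease inhibitors and proteases (circles, each gene by its brightest tested probe, red at an adjusted p under 0.05). Dotted lines mark 1.5-fold differences; Wfdc12 is the only point beyond them.

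Markers of cells that the dissected tissue could hold were read beside Wfdc12. All 5 hair cell markers and all 5 supporting cell markers were bright enough to be tested, and so were the defining genes of mesenchyme, neurons, glia, melanocytes and macrophages. Of 6 epidermis genes 5 were tested, with mean log2 levels of 10.03 to 10.09 in Sox2-Tbx2LOF and 9.97 to 10.13 in control pools. Over 8 lists of neighbouring tissues and blood cells 36 genes were tested and 0 were called, also in unpaired limma. Their log2 ratios lay between −0.25 and 0.34. Of these 36 genes 7 had an unadjusted p under 0.05 (limma), a larger share than the 8.52% of all genes tested. At their brightest probes all tested genes of mesenchyme (5), glia (3) and airway and middle ear (3) were above 0. Those of neutrophils (6), macrophages (5) and melanocytes (4) were all below 0, while epidermis and neurons were mixed. The highest was Col1a1 of mesenchyme at 0.34 (limma adjusted p = 0.061). The mean log2 level of the 6 neutrophil genes tested was 7.71 to 7.92 in Sox2-Tbx2LOF and 7.68 to 8.22 in control pools. The mean over 3 of 7 airway and middle ear genes was 6.80 to 6.86 and 6.78 to 6.81, and the other 4 were not bright enough to be tested. Of the hair cell markers Otof, which encodes a protein needed for transmitter release by inner hair cells, was lower at −0.40 (SE 0.05, limma adjusted p = 0.0099, and 0.26 in unpaired limma). Gfi1, a transcription factor gene of hair cells, was at −0.24 and below 0 on 4 of 4 arrays (limma adjusted p = 0.064), Pou4f3 was at −0.01, and Myo6 and Myo7a were at 0.10 and 0.09. The mean over the 5 hair cell markers was 11.13 to 11.36 in Sox2-Tbx2LOF and 11.24 to 11.40 in control pools. Like the mesenchyme, glia and airway genes, the 5 supporting cell markers all had log2 ratios above 0, with a median of 0.10. None of the 5 passed the adjusted p (limma), while 2 had an unadjusted p under 0.05. Sox2, the gene that also carries the Cre, was at 0.23 (limma adjusted p = 0.087) and Prox1 at 0.17 (limma adjusted p = 0.23), both above 0 on 4 of 4 arrays. Hes5, Fgfr3 and Cdkn1b lay between 0.00 and 0.10. The mean over the 5 markers was 12.95 to 13.07 in Sox2-Tbx2LOF and 12.84 to 12.97 in control pools. The part of these cells in the Wfdc12 difference was not tested. Tbx2 itself had log2 ratios of −0.06, −0.24, −0.02 and −0.30, at a probe at base 3502 of the transcript that need not lie in the deleted part.

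The genes whose levels were most like those of Wfdc12 over the 8 pools were Pkd2l1, Prdm12, Trh, Gabrg3 and LOC675947. Pkd2l1 encodes a cation channel of the polycystin family, Prdm12 a zinc finger regulator, Trh the precursor of thyrotropin-releasing hormone and Gabrg3 a GABA receptor subunit. Pearson's r was 0.992, 0.992, 0.991, 0.984 and 0.983 in this order. The 8 levels come from 4 arrays and fall into the 2 genotypes, so that r mainly reflects the difference between these. The log2 ratios were −1.48, −2.55, −2.91, −0.62 and −0.66.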

How the data were processed

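The authors' scanner files hold spot intensity values from Agilent Feature Extraction 10.7.3.1 and a deposited log10 ratio of red over green. The authors also deposited a signed fold change as a score in the series matrix, with unstated steps; it ran as Sox2-Tbx2LOF over control, since it correlated with the scanner ratio at r of 0.648 to 0.696 over all probes, and each column's median was 1. In limma 3.58.1 (R 4.3.3), background was corrected with normexp (offset 50), ratios were normalized by loess, outlier-flagged and control spots were left out, and the 4 spots of a probe were averaged. The mean log2 intensity of the red and green channel was quantile-normalized between arrays (Aquantile), which leaves the ratios unchanged. Channel levels were computed from this mean and the ratio. A probe was tested when more than 0.5 of its spots were well above background on at least 3 arrays in either genotype; 28104 passed, and 28328 of 39429 probes had a RefSeq symbol. Ratios were fitted with a dye term and Benjamini-Hochberg adjustment; p-values are two-sided. The array pairs the pools, and the red and green channel of a probe had a residual correlation of 0.27 after terms for genotype, dye and sex. The study's methods name an unpaired comparison (SAM), which was replaced by unpaired limma as an alternative. Sex differences used a sex term in limma. Named genes were all member probes, list genes past the adjusted p or otherwise at most the 3 of a list with the largest absolute log2 ratio at their brightest probe (other probes where they disagree), neighbours within 200 kb, and the 5 genes most like Wfdc12. Reck, Serpina1d, Serpina1f and the remaining hair cell and supporting cell markers were named after their values were seen. Members and lists were chosen with earlier results of these data known. Median spot signals were 315.4 to 412.3, local background 31 to 80, and 70.4% to 75.2% of probe spots were well above background. Only 4 arrays on 1 slide limit the precision. The fits were tested on simulated data. Protein sequences were not used here.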

Additional observations from a re-analysis of the deposited data

Results flagged for a closer look

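The control level of Wfdc12 on array 3, 9.88, stood apart from 9.63 to 9.65 in the other control pools; the Sox2-Tbx2LOF level on that array was also the highest, and the ratio did not stand apart. The log2 ratio of Wfdc18 on array 1 was 0.19 against −0.05 to −0.03 on the others, at a signal that was above background in green only. On array 1 the log2 ratios of Wfdc6a, Wfdc6b, Papln and Stfa2 were 0.063, 0.13, 0.14 and 0.27, against −0.63 to −0.55, −0.66 to −0.54, −0.76 to −0.70 and −0.81 to −0.67 on arrays 2 to 4. These 6 came from 56 groups of 4 values that were examined for a value far from the rest, where chance flags about 1 in 20. The probes of Wfdc6a and Wfdc6b share an 18-base run, and whether they read the same RNA was not tested.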

How the results depend on the processing

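The log2 ratio of Wfdc12 was below 0 under all 17 other settings, from −1.79 to −1.51. It was −1.69 with an offset of 10, −1.60 with no background correction, −1.79 in the scanner software's own ratio, −1.78 in the series matrix and −1.51 with median centring, and −1.55 to −1.53 when each array was left out in turn. Wfdc12 was the 1 member called except in the series matrix, where 0 members, 1 probe in all and 0 list genes at any fold passed; the cause was not tested. The number of called probes was 70, against 124 in the scanner software's own ratio, 277 with no minimum fold and 68 to 106 when an array was left out. In unpaired limma, with no replicate block, 1 member and 59 probes were called. List genes called were 0 except 0 to 3 when an array was left out and 5 with no minimum fold. List genes past the adjusted p were 5, against 0 without the dye term, 0 in unpaired limma, 3 without a filter on dim probes and 1 to 10 when an array was left out. Called neighbours were 0 to 1 when an array was left out. With no normalization between arrays 9 probes differed in level between the sexes. For the other 9 member probes 150 of 153 values moved by less than the SD between arrays, within −0.21 to 0.16. All arrays shared 1 slide and 1 scan, so no block for these could be fitted. The offset added to all signals draws the ratio of a dim probe closer to 0, and 4 arrays limit small differences.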

Other observations

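Corin, which encodes a transmembrane serine protease and was in none of the lists, was lower in Sox2-Tbx2LOF with log2 ratios of −0.75, −0.90, −0.87 and −1.07 on arrays 1 to 4 (mean −0.90 ± 0.13, SD, n = 4; limma adjusted p = 8.4e-05; probe on mm9 chr5:72692288-72692347). It was picked after its values were seen.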
